A study of Mus musculus with 12 samples.

Results

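The region-by-conversion interaction at 4 weeks is the response of midbrain astrocytes less the response of cortical astrocytes, and it asks which genes responded differently in the 2 regions. It was computed as (midbrain shPTB 4 weeks minus midbrain mock) minus (cortex shPTB 4 weeks minus cortex mock) on the log2 scale, so a positive value marks a gene that rose more, or fell less, in midbrain. It used 8 of the 12 libraries of the series, 2 in each of 4 groups, and it was tested in the 14607 of 54356 genes that passed a filter on low counts. All cells were C57BL/6 mouse astrocytes. The groups were midbrain astrocytes given shRNA against PTB and kept in neuronal differentiation medium for 4 weeks, midbrain Mock astrocytes in growth medium, and the same pair from cortex. Hairpin and medium differ together between mock and 4 weeks, and their effects cannot be told apart. The labels give neither the age of the animals nor the age of the mock cultures, and they do not tie replicates to separate cultures or animals, so a p-value here measures the spread between libraries, which may be technical.

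PTB, the product of Ptbp1, binds RNA, holds back the splicing of neuronal exons and keeps microRNA control of the REST complex in check, and its depletion has been studied as a way to turn astrocytes towards neurons. Astrocytes of different brain regions keep traces of their origin in culture. They also share programmes that can be switched on in any region: an acute-phase or reactive programme, an interferon programme driven by STAT and IRF factors, and retinoid metabolism. Cultures of astrocytes can hold other cells, among them microglia, ependymal, choroid plexus, meningeal and oligodendrocyte-lineage cells.

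Ptbp1 (chr10:79854427-79864771, plus strand, GRCm38) had 169 and 155 CPM (read counts per TMM-scaled library size) in the midbrain 4-week libraries, against 208 and 250 CPM in midbrain mock. It had 89.2 and 90.5 CPM in the cortex 4-week libraries, against 173 and 251 CPM in cortex mock. The groups did not overlap within either region, but only the cortex change passed the test (log2 change -1.24 ± 0.21 SE, edgeR adjusted p = 0.000814), while the midbrain change was -0.50 ± 0.20 (edgeR adjusted p = 0.0744). The interaction of 0.74 ± 0.29 was not called (edgeR adjusted p = 0.274), although it was without cortex mock library 1 (0.99, edgeR adjusted p = 0.0407) and with scaling to total reads (0.93, edgeR adjusted p = 0.0177). It was also called without both mock libraries numbered 1 (0.86), without both numbered 2 (0.59) and with a replicate block in mock (0.72). Ptbp2, the neuronal paralog that rises as PTB falls, rose in both regions by 1.75 in midbrain and 2.04 in cortex.

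Library depth ran from 7666778 to 11385761 reads over the 8 libraries, and 3 reads, the upper limit that a count of 0 allows, were worth 0.163 to 0.576 CPM. Midbrain libraries had 36.4 and 37.2% of their reads on mitochondrial genes at 4 weeks, against 16.9 and 18.3% in mock. For cortex libraries this share was 47.7 and 48.3% at 4 weeks, against 18.9 and 22.7% in mock. Spread between replicates was wider in mock: 1.04% of genes differed more than 2-fold between midbrain 4-week libraries, 8.41% in midbrain mock, 2.01% in cortex 4-week and 10.5% in cortex mock. With scaling to total reads instead of the trimmed mean, the median change of all genes was -1.01 in midbrain and -1.21 in cortex, against -0.15 and -0.12 with the trimmed mean, while the median interaction was 0.21 against -0.00. A direction within a region is relative to most genes. With the mitochondrial genes left out of the fit 371 genes were called for the interaction, against 372 with them. How the mock spread was treated mattered far more. A replicate block in mock, a fit in which same-numbered mock libraries of the 2 regions may shift together, gave 2277 calls. The cause of the mock spread was not tested.

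Of the 14607 genes, 372 (2.55%) had an interaction at an adjusted p under 0.05 in edgeR's quasi-likelihood test. Of these, 278 were higher in midbrain (1.9%) and 94 lower (0.644%). Over the same 14607 genes DESeq2 called 326 higher and 111 lower, and limma 223 higher and 52 lower. The responses themselves were far broader: 5721 genes (39.2%) changed in midbrain and 5753 (39.4%) in cortex, and 3933 genes changed the same way in both regions without a called interaction. The 372 genes had a median size of 2.24 on the log2 scale and none was under 1.01. The count rested on few libraries. Leaving out midbrain 4-week library 1 or 2 gave 166 and 176 calls, and cortex 4-week library 1 or 2 gave 141 and 162. Leaving out cortex mock library 1 gave 549. In all, 113 genes (93 higher and 20 lower) kept the call whichever of the 8 libraries was left out. Called genes given below with an interaction of their own belong to these 113 unless a left-out library is named. C3, Cd44, Fbln5, Gfra2, Ifit1, Oasl2 and Stra6 lie outside the naming rule. They were chosen after their values were seen, as were genes named only as members of a list. Counts of list members at an unadjusted p under 0.05 are given below without the count over all genes, so they describe direction alone.

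**Figure D1:**
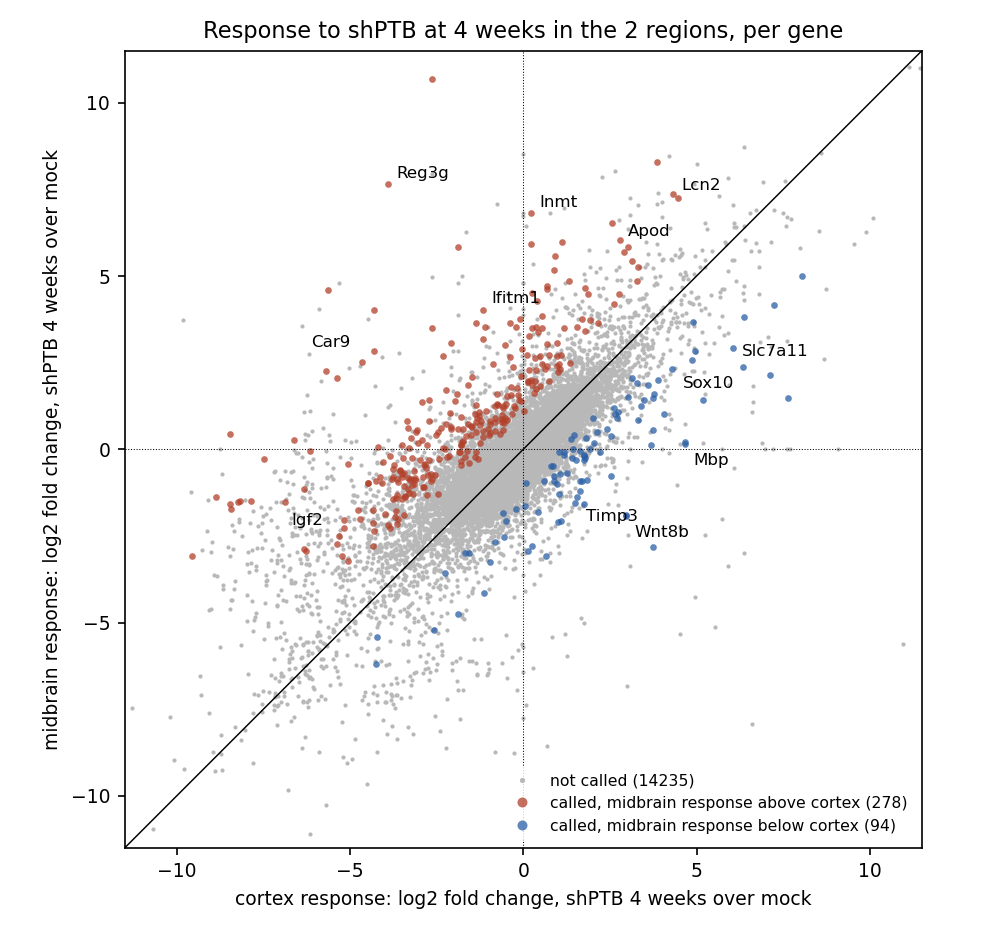
Log2 change at 4 weeks against mock in cortex (horizontal axis) and midbrain (vertical axis), 1 point per gene for the 14607 genes tested, with the 278 genes called higher and the 94 called lower for the interaction coloured and 3 genes outside the axes. Most genes follow the diagonal, and Reg3g, Inmt and Ifitm1 stand far above it while Mbp and Slc7a11 lie below it.

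A higher interaction arose in several ways. Of the 278 genes, 62 rose in midbrain without a called change in cortex, 73 fell in cortex without a called change in midbrain, 63 fell in both, less in midbrain, 35 rose in both, more in midbrain, and 45 rose in midbrain and fell in cortex. Of the 94 lower genes, 32 rose in cortex alone, 26 rose in both, more in cortex, 12 fell in both, 11 fell in midbrain alone, and 13 fell in midbrain and rose in cortex. The 58 genes that went opposite ways are 0.397% of those tested. With scaling to total reads 62 genes did so but only 14 were the same, so an opposite direction is given below only where both scalings show it or the difference is stated.

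**Figure D2:**
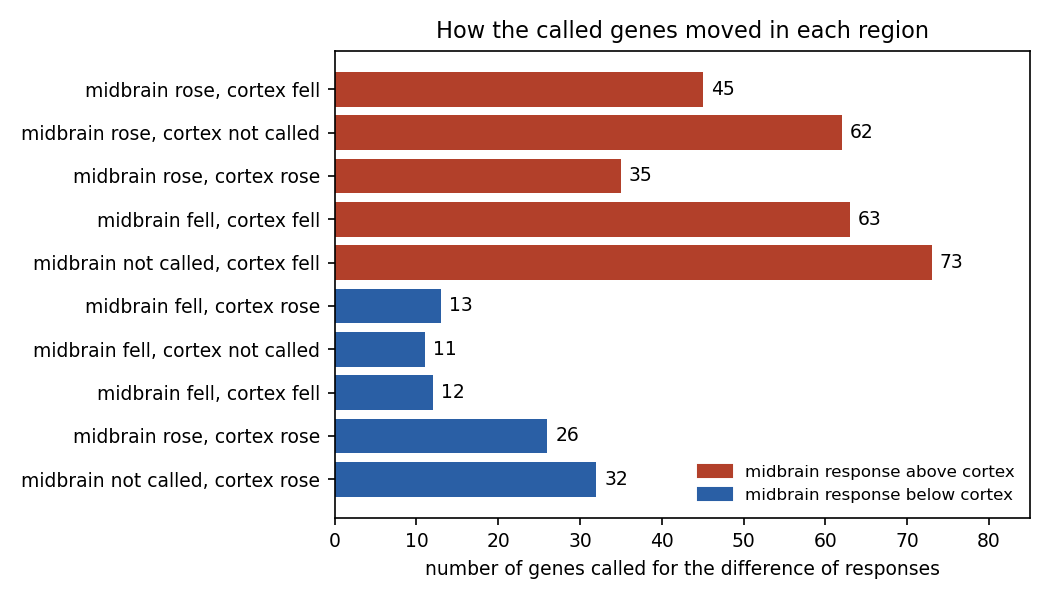
Number of genes called for the interaction (horizontal axis) by how they responded in midbrain and in cortex, with higher interactions in red and lower interactions in blue. The largest classes were the 73 higher genes that fell in cortex alone and the 32 lower genes that rose in cortex alone.

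The higher side is described first, from genes picked by size and from genes that went opposite ways. Reg3g (chr6:78466269-78468872), an antimicrobial lectin, had 128 and 115 CPM in midbrain 4-week libraries, against 0.38 and 0.835 CPM in midbrain mock. It had 0.916 and 0.192 CPM in cortex 4-week libraries, against 6.45 and 10.9 CPM in cortex mock. The gene rose in midbrain and fell in cortex, with no overlap in either region, and its interaction was 11.56 ± 0.62 (edgeR adjusted p = 5.37e-06), also 11.73 with scaling to total reads. Inmt (chr6:55170626-55175043), which encodes an enzyme that methylates indolethylamines, had 298 and 283 CPM in midbrain 4-week libraries, against 1.52 and 3.66 CPM in midbrain mock. In cortex it had 8.97 and 8.84 CPM at 4 weeks, against 5.64 and 9.87 CPM in mock, where the groups overlapped. Its interaction was 6.61 ± 0.51 (edgeR adjusted p = 8.66e-05).

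Ifitm1 (chr7:140967221-140969825), a membrane protein of the interferon-induced family that restricts viral entry, had 367 and 332 CPM in midbrain 4-week libraries, against 21.6 and 21.3 CPM in midbrain mock. It had 10.4 and 11.9 CPM in cortex 4-week libraries, against 21.5 and 28.3 CPM in cortex mock. The regions had nearly the same level in mock and went opposite ways, for an interaction of 5.18 ± 0.27 (edgeR adjusted p = 5.37e-06). Ifitm1 has close paralogs, and how reads were divided among them is uncertain. Glycam1, a secreted mucin-type glycoprotein, also went opposite ways, with 10.6 and 9.37 CPM in midbrain 4-week libraries and 2.88 and 1.86 CPM in midbrain mock, and 0.183 and 0.576 CPM in cortex 4-week libraries and 17.2 and 15.2 CPM in cortex mock (interaction 7.45 ± 0.57, edgeR adjusted p = 8.66e-05). Lrg1, a secreted acute-phase glycoprotein, had 12.8 and 10.3 CPM in midbrain 4-week libraries and 1.3 and 2.31 CPM in midbrain mock, and 0.549 and 1.35 CPM in cortex 4-week libraries and 3.2 and 6.36 CPM in cortex mock (5.0 ± 0.64, edgeR adjusted p = 0.00192).

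For genes with few reads or none in a group the fitted value depends on the prior count, so the fold is given as a bound or with its counting interval. Car9, a hypoxia-induced carbonic anhydrase, rose in midbrain to 22.9 and 26.4 CPM, against 2.71 and 4.24 CPM in mock, and in cortex it was 20.4-fold lower at 4 weeks (exact 95% counting interval 6.87 to 99.9, on 3 reads). Aqp1, a water channel of choroid plexus, had 6.49 and 4.95 CPM in midbrain 4-week libraries, against 4.18 and 5.26 CPM in midbrain mock, and in cortex it was 105-fold lower (28.8 to 865). The reductase gene Cbr2 fell in both regions, to 3.04 and 2.01 CPM in midbrain 4-week libraries, against 7.81 and 7.38 CPM in midbrain mock, and in cortex it was 406-fold lower on 1 read (72.7 to 16038). Mlf1 had no read in cortex at 4 weeks, at least 35-fold lower than in mock, and its call ended without any 1 of the 4-week libraries (highest edgeR adjusted p = 0.131). Sprr2b had no read in midbrain mock and 19.5 and 22 CPM in midbrain 4-week libraries, at least 235-fold higher, and its call ended without any 1 of the 4-week libraries and without cortex mock library 1 (edgeR adjusted p = 1 in that case).

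**Figure D3:**
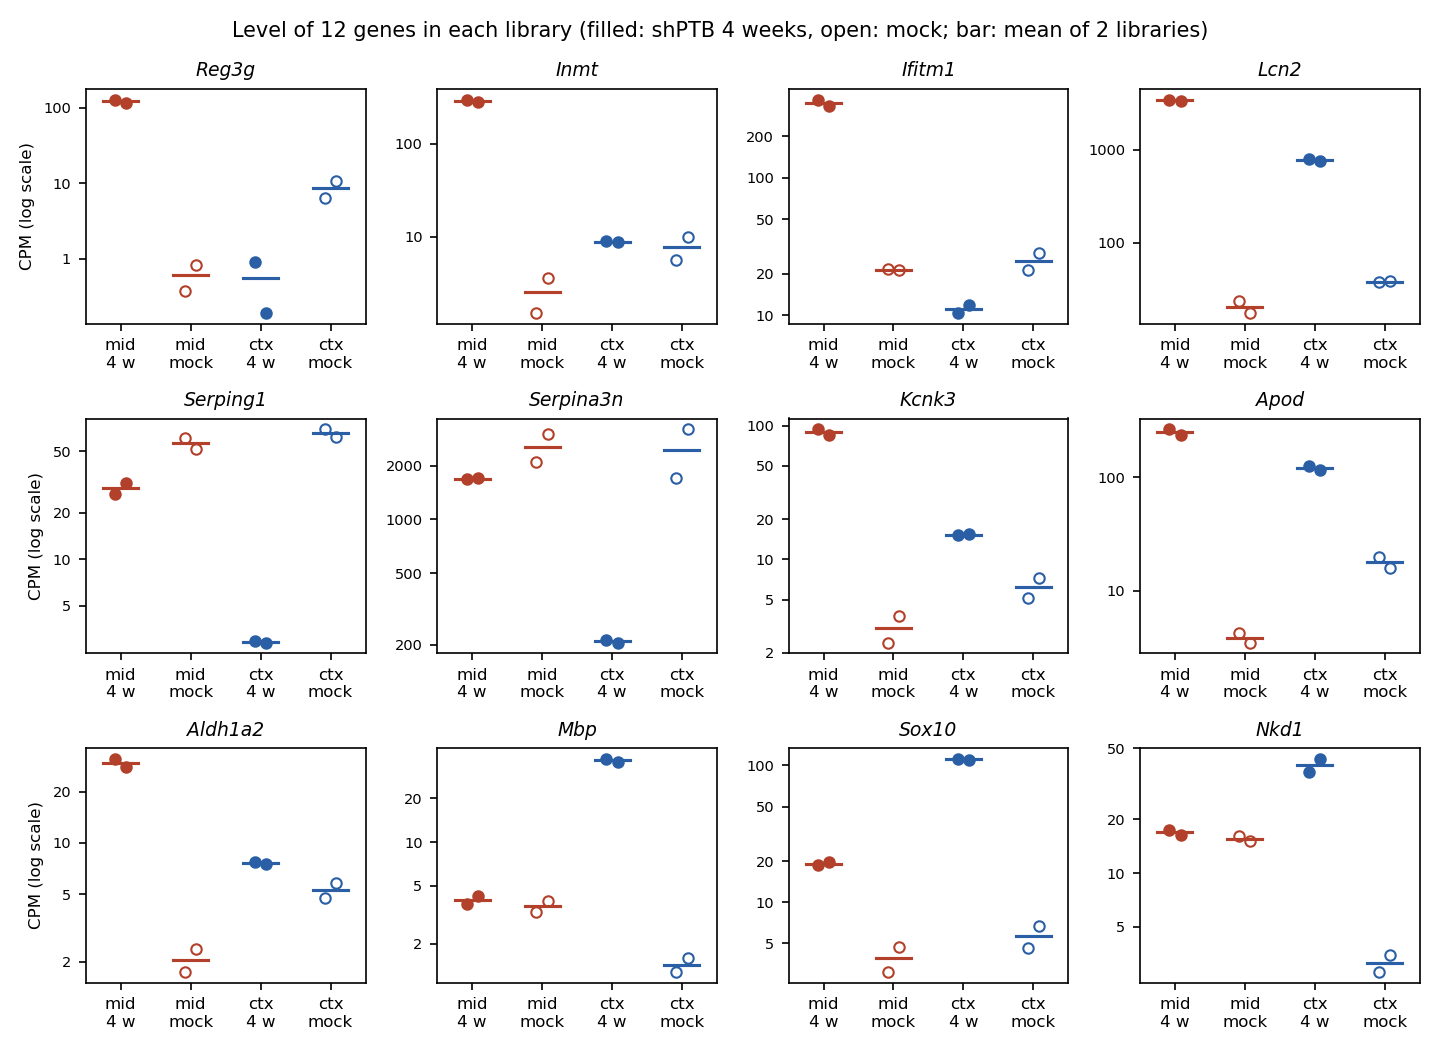
CPM on a log axis in each of the 8 libraries for 12 genes, 1 panel a gene, with midbrain 4-week, midbrain mock, cortex 4-week and cortex mock libraries side by side, 1 point per library and bars at the mean of the 2 libraries. In the panel of Ifitm1 the midbrain 4-week points at 367 and 332 CPM stand far above the other 3 groups, while Mbp is high in cortex 4-week libraries alone, at 37.4 and 35.6 CPM.

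Of the 8 largest lower interactions among named genes, 7 belonged to genes that rose in cortex. Nkd1 (chr8:88521354-88594884), an inhibitor of Wnt signalling, had 17.5 and 16.3 CPM in midbrain 4-week libraries and 16.1 and 15.1 CPM in midbrain mock. It had 37 and 43.8 CPM in cortex 4-week libraries and 2.79 and 3.5 CPM in cortex mock. The interaction was -3.57 ± 0.28 (edgeR adjusted p = 8.66e-05), and Nkd1 was lower in midbrain than in cortex at 4 weeks, although higher in mock. Slc7a11 (chr3:49892526-50443614), the cystine-glutamate exchanger, had 30.7 and 31.5 CPM in midbrain 4-week libraries, against 4.39 and 3.79 CPM in midbrain mock. It had 38.5 and 40.4 CPM in cortex 4-week libraries, against 0.407 and 0.796 CPM in cortex mock. It rose in both regions, and more in cortex, where the mock level was lower (interaction -3.14 ± 0.35, edgeR adjusted p = 0.000992, but 0.114 by limma).

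Col22a1, a collagen of tissue junctions, also rose in both, more in cortex, with 29.3 and 26.9 CPM in midbrain 4-week libraries and 12.8 and 8.28 CPM in midbrain mock, and 56.8 and 63.2 CPM in cortex 4-week libraries and 1.74 and 1.51 CPM in cortex mock (-3.78 ± 0.36, edgeR adjusted p = 0.000329, but 0.156 with a transcript length offset). With scaling to total reads its midbrain change was 0.51 and no longer called (edgeR adjusted p = 0.147). Slc13a5, a citrate transporter, rose in cortex alone (-4.45 ± 0.56, edgeR adjusted p = 0.00181, but 0.0606 by limma). Wnt8b (chr19:44493472-44514273), a Wnt ligand of the dorsal forebrain, fell in midbrain to 3.18 and 4.15 CPM, against 8.68 and 19.2 CPM in mock, and rose in cortex to 3.11 and 1.73 CPM, against 0.349 and 0.239 CPM in mock. Its interaction of -4.88 ± 0.73 (edgeR adjusted p = 0.00477) is not among the 113: without cortex 4-week library 1 it was -4.40 (edgeR adjusted p = 0.0605), and by limma the adjusted p was 0.182. Kcnip1, a subunit of potassium channels, instead fell in midbrain to 1.11 and 1.74 CPM, against 9.22 and 15.3 CPM in mock, and had 7.51 and 3.84 CPM in cortex 4-week libraries, against 2.38 and 4.93 CPM in cortex mock, where the groups overlapped. Its interaction of -3.75 ± 0.64 (edgeR adjusted p = 0.00978) was not called without midbrain 4-week library 1 or cortex 4-week library 1 (-3.18, edgeR adjusted p = 0.0814 without the cortex library).

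Most interferon-stimulated genes had a positive interaction. Of 45 genes on the list, 40 were tested, 14 were called higher (35%) and 0 lower, and 38 had an interaction above 0. The median was 1.40, beside -0.00 over all genes, and 1.42 with groups under 3 reads set to 3 reads. By unadjusted p under 0.05, 25 were higher and 0 lower, and DESeq2 called 15 and limma 10, all higher. The count fell to 7 and 6 with midbrain 4-week library 1 or 2 left out and to 6 and 5 with cortex 4-week library 1 or 2 left out. The call held without each library in turn for 5 members, Zbp1, Bst2, Oasl2, Ifit1 and Lgals3bp.

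By edgeR, 0 members were called between midbrain and cortex in mock (1.25% of all genes were higher and 0.938% lower). At 4 weeks 21 of the 40 were called higher in midbrain and 0 lower, beside 5.48% and 2.51% of all genes. At an unadjusted p under 0.05, edgeR gave 0 higher and 4 lower in mock, and 28 higher and 1 lower at 4 weeks. DESeq2 and limma called 0 in mock, and at 4 weeks they called 21 and 26 higher and 0 lower. Within midbrain 18 members rose and 2 fell, with a median of 0.78, and within cortex 5 rose and 12 fell, with a median of -0.62. With scaling to total reads these medians were -0.13 and -1.70, so the sign of the midbrain median flips with the scaling, while the interaction median was 1.63. By the trimmed mean, of the 14 called genes, 7 rose in midbrain alone (Usp18, Oasl2, Rsad2, Irf7, Ifitm3, Igtp and Zbp1), 4 fell in cortex alone (Isg20, Stat2, Ifi27 and Bst2) and 3 rose in both, more in midbrain (Ifit1, Rtp4 and Lgals3bp). With scaling to total reads the cortex change of Lgals3bp was -0.54 in place of 0.53, and Irf7, Oasl2, Ifitm3, Igtp and Zbp1 were called lower in cortex too.

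Among sensors and effectors, Zbp1, a sensor of left-handed nucleic acid, had 10.8 and 11 CPM in midbrain 4-week libraries and 0.759 and 0.963 CPM in midbrain mock, and 0.366 and 0.961 CPM in cortex 4-week libraries and 1.05 and 2.47 CPM in cortex mock (interaction 5.01 ± 0.68, edgeR adjusted p = 0.00285). Bst2, a tether of budding virus, had no called change in midbrain, with 5.66 and 5.62 CPM at 4 weeks and 6.51 and 6.48 CPM in mock, and fell in cortex to 0.733 and 0.576 CPM, against 9.3 and 9.79 CPM in mock (3.63 ± 0.39, edgeR adjusted p = 0.000694). When scaled to total reads, Zbp1 was also called lower in cortex (-2.38, edgeR adjusted p = 0.00195) and Bst2 also in midbrain (-1.07, edgeR adjusted p = 0.00549). Ifit1, which binds foreign RNA, had 83.2 and 86.4 CPM in midbrain 4-week libraries and 3.69 and 3.02 CPM in midbrain mock, and 13 and 11.1 CPM in cortex 4-week libraries and 3.25 and 3.82 CPM in cortex mock (2.88 ± 0.28, edgeR adjusted p = 0.000361). Oasl2, of the oligoadenylate synthetase family, had 23.3 and 26.8 CPM in midbrain 4-week libraries and 3.36 and 2.82 CPM in midbrain mock, and 2.75 and 2.31 CPM in cortex 4-week libraries and 3.78 and 3.5 CPM in cortex mock (3.53 ± 0.33, edgeR adjusted p = 0.00029). Irf7, the factor that amplifies the programme, was called at 3.55 ± 0.78 (edgeR adjusted p = 0.0372) but not without any 1 of 5 libraries, the 4 at 4 weeks and cortex mock library 2 (highest edgeR adjusted p = 0.187). The Ifit, Ifitm, Oas and GTPase members have close paralogs, so their shares of reads are uncertain.

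The 2-week libraries are not part of the 4-week interaction and show the same genes at an earlier time. At 2 weeks the interaction had a median of 0.03 over the list, with 0 called higher and 0 lower, beside 0.685% of all genes called. Summed over the 45 genes, midbrain libraries held 2291 to 3261 CPM in mock, 6395 to 6546 at 2 weeks and 9288 to 9350 at 4 weeks, and cortex libraries held 1989 to 3744 in mock, 5050 to 5305 at 2 weeks and 2352 to 2409 at 4 weeks. All 14 called genes were lower in both cortex 4-week libraries than in both cortex 2-week libraries. Of the 14, 11 were higher in both midbrain 4-week libraries than in both midbrain 2-week libraries. These genes were picked by their 4-week values, which favours such counts, and the same was not counted over all genes. Ifit1 had 36.5 and 35.1 CPM in midbrain and 60.5 and 71.4 CPM in cortex at 2 weeks, and Oasl2 had 19.8 and 18.2 CPM in midbrain and 29.4 and 36.8 CPM in cortex. In a comparison added after the data were seen, the region difference at 4 weeks less that at 2 weeks, which needs no mock library, was called higher in 10 of the 40 genes and lower in 0, beside 0.363% and 0.0479% of all genes, with a median of 1.63. By unadjusted p, 24 were higher and 1 lower, and DESeq2 called 14 and limma 23, all higher.

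**Figure D4:**
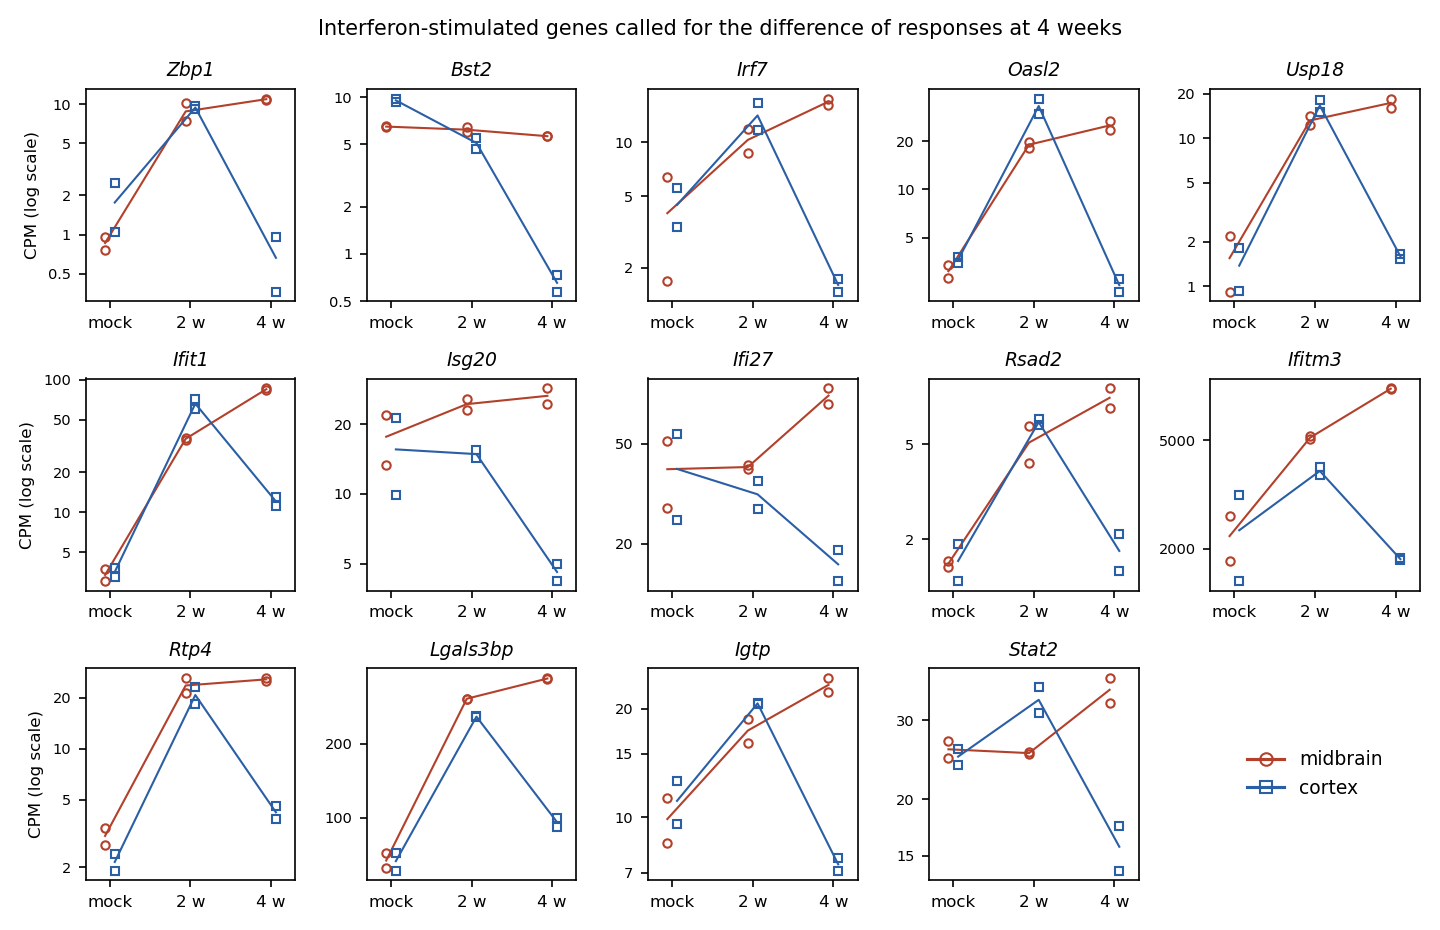
CPM on a log axis of interferon-stimulated genes called for the interaction, by state from mock to 2 weeks to 4 weeks, in midbrain and in cortex, with 1 point per library. Mock levels of the regions overlap or lie close in most panels, with Bst2 higher in cortex mock. At 4 weeks both midbrain libraries exceed both cortex libraries in all 14 genes. The genes were picked by their 4-week interaction, so this separation follows largely from the choice.

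Promoter letters are shown because interferon-stimulated genes share a known element, the interferon-stimulated response element bound by STAT and IRF complexes, and they let called and uncalled members be compared. Its core, GAAA followed by NN (any 2 bases) and GAAA again, was searched on both strands of RefSeq windows (GRCm38.p6) from 250 bases before to 50 after a gene's start, and overlapping matches were allowed. It was in 3.44% of the 32851 windows and in 3.8% of 10663 tested genes with a window. Among interferon-stimulated genes it was in 6 of 10 called members with a window (60%) and 12 of 19 uncalled members (63.2%). The stretches below come from the windows of 5 called genes, Ifit1 (chr19:34640760-34640819, plus), Bst2 (chr8:71537568-71537627, minus), Igtp (chr11:58199497-58199556, plus), Rsad2 (chr12:26456538-26456597, minus) and Stat2 (chr10:128270251-128270310, plus), and of the uncalled Gbp2 (chr3:142620579-142620638, plus). They run 5′ to 3′ on the gene's strand, and capitals mark matches to the core or its reverse complement.
Ifit1: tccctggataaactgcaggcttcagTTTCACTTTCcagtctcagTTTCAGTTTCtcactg
Bst2: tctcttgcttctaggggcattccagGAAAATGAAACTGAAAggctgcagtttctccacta
Igtp: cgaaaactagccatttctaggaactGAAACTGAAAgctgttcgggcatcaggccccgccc
Rsad2: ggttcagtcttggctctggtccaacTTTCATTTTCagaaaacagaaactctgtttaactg
Stat2: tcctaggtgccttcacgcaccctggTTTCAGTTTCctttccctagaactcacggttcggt
Gbp2: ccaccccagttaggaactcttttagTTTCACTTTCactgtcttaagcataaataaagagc

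Reactive and acute-phase genes formed the other large group. Of 32 tested, 11 were called higher (34.4%) and 1 lower, with a median of 1.27, or 0.97 with groups under 3 reads set to 3 reads. DESeq2 called 11 higher and 1 lower, and limma 10 and 1. The higher count was 7 without cortex 4-week library 1 or 2. Of the 11 called higher, 5 fell in cortex alone. Within midbrain 11 members rose and 8 fell (median 0.12), and within cortex 7 rose and 15 fell (median -0.83). With scaling to total reads these medians were -0.78 and -1.95. Lcn2, C3 and Serpina3n made up most of the summed level at 4 weeks. This level was 9999 to 10089 CPM in midbrain 4-week libraries and 3489 to 4553 in midbrain mock. In cortex it was 2832 to 2880 CPM in 4-week libraries and 2847 to 4660 in mock. At 2 weeks it was 9102 to 9248 in midbrain and 10340 to 10633 in cortex, so the cortex sum at 4 weeks was below that at 2 weeks and close to the lower mock library.

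Lcn2 (chr2:32384633-32388252), the siderophore-binding lipocalin of reactive astrocytes, rose in both regions. It had 3430 and 3303 CPM in midbrain 4-week libraries and 23.5 and 17.5 CPM in midbrain mock, and 789 and 750 CPM in cortex 4-week libraries and 37.4 and 39 CPM in cortex mock (interaction 3.02 ± 0.30, edgeR adjusted p = 0.000361). Serpina3n (chr12:104406729-104414329), a serine protease inhibitor of a large gene family, had 1681 and 1695 CPM in midbrain 4-week libraries, against 2086 and 3000 CPM in midbrain mock. In cortex it fell to 212 and 205 CPM, against 1707 and 3198 CPM in mock (2.96 ± 0.41, edgeR adjusted p = 0.00314). The elastic-fibre gene Fbln5 was the only member called lower, rising in both regions and more in cortex, to 370 and 361 CPM in midbrain, against 122 and 140 CPM in mock, and to 67 and 68.4 CPM in cortex, against 4.65 and 5.49 CPM in mock (-2.26 ± 0.24, edgeR adjusted p = 0.000744). Timp1, an inhibitor of metalloproteinases, fell in cortex (2.91 ± 0.34, edgeR adjusted p = 0.00124), and its midbrain change of 0.12 was -0.77 when scaled to total reads. Cd44, the hyaluronan receptor, fell in both regions, less in midbrain (2.34 ± 0.33, edgeR adjusted p = 0.00337).

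Complement genes overlapped this group. Of 26 tested, 6 were called higher (23.1%) and 0 lower, with a median of 1.84, or 1.20 at the read floor, and 12 were higher and 0 lower at an unadjusted p under 0.05. DESeq2 called 6 and limma 5, all higher, and the edgeR count was 3 without midbrain 4-week library 1 or cortex 4-week library 2. Serping1 (chr2:84765387-84775444), the inhibitor of the first component, had 26.4 and 31.2 CPM in midbrain 4-week libraries and 60.8 and 51.9 CPM in midbrain mock, and 2.93 and 2.88 CPM in cortex 4-week libraries and 69.3 and 61.9 CPM in cortex mock (3.52 ± 0.27, edgeR adjusted p = 8.66e-05). It fell in both regions, far less in midbrain. C3, the central component, rose in both, to 2880 and 2913 CPM in midbrain, against 106 and 154 CPM in mock, and to 1204 and 1236 CPM in cortex, against 268 and 404 CPM in mock (2.62 ± 0.35, edgeR adjusted p = 0.00284). Cfb, of the alternative pathway, rose in midbrain alone, to 10.4 and 9.11 CPM, against 0.217 and 0.514 CPM in mock (4.03 ± 0.61, edgeR adjusted p = 0.00508, but 0.207 by limma). The C1q genes, which microglia make, fell in both regions and had no called interaction.

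Retinoid genes of synthesis, uptake and binding were called higher. Of 20 tested, 6 were called higher (30%) and 0 lower, with a median of 1.32, or 1.35 at the read floor. At an unadjusted p under 0.05, 10 were higher and 0 lower, and DESeq2 called 7 and limma 6, all higher. The interaction at 2 weeks already had a median of 1.31 over the list, with 4 called higher and 0 lower. The change between the times had a median of -0.05. Between regions in mock, 4 of the 20 were called lower in midbrain and 1 higher. Aldh1a2 (chr9:71215789-71296243), which makes retinoic acid, had 31.2 and 28 CPM in midbrain 4-week libraries and 1.74 and 2.38 CPM in midbrain mock, and 7.69 and 7.49 CPM in cortex 4-week libraries and 4.71 and 5.81 CPM in cortex mock (3.31 ± 0.32, edgeR adjusted p = 0.000361). It is also a meningeal marker. Stra6, the retinol uptake receptor, rose in midbrain (3.08 ± 0.48, edgeR adjusted p = 0.00574), and its cortex change of 0.17 was -0.84 when scaled to total reads. Crabp1 (chr9:54764748-54773110), a cytosolic retinoic acid binder, had 368 and 350 CPM in midbrain 4-week libraries and 426 and 637 CPM in midbrain mock, and 12.3 and 12.7 CPM in cortex 4-week libraries and 111 and 226 CPM in cortex mock (3.19 ± 0.44, edgeR adjusted p = 0.00314, but 0.181 with a transcript length offset). The transglutaminase Tgm2, a retinoid-induced gene, fell in cortex alone (3.56 ± 0.45, edgeR adjusted p = 0.00189). Aldh1a1, the other retinaldehyde dehydrogenase of these cells, rose in both, to 859 and 886 CPM in midbrain, against 30.3 and 49.3 CPM in mock, and to 1151 and 1087 CPM in cortex, against 37.4 and 53.1 CPM in mock (interaction -0.18 ± 0.35, edgeR adjusted p = 0.935).

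Markers of other cell types differed between the regions in some lists and not in others. In bulk RNA fewer cells of a type and less RNA per cell cannot be told apart. Choroid plexus markers summed to 202 to 206 CPM in midbrain 4-week libraries and 67.3 to 68.4 in midbrain mock, and to 43.8 to 51.5 in cortex 4-week libraries and 57.3 to 63.2 in cortex mock. Of 9 tested, 4 were called higher, among them Enpp2, the secreted lysophospholipase, with 40.9 and 45.1 CPM in midbrain 4-week libraries and 3.85 and 3.72 CPM in midbrain mock, and 9.89 and 10.6 CPM in cortex 4-week libraries and 7.38 and 6.68 CPM in cortex mock (2.96 ± 0.26, edgeR adjusted p = 0.000161). The list count was 2 without midbrain 4-week library 1 or 2 or cortex 4-week library 1. The defining marker Ttr rose in both regions, with no called difference (0.40 ± 0.49, edgeR adjusted p = 0.908), and Lmx1a had no read in either region at 4 weeks.

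Motile cilium and ependymal genes summed to 788 to 810 CPM in midbrain 4-week libraries and 1247 to 1318 in midbrain mock, and to 243 to 248 in cortex 4-week libraries and 896 to 917 in cortex mock. Of 31 tested, 28 had an interaction above 0, with a median of 1.65, or 1.20 at the read floor. Of these, 19 fell in midbrain and 25 in cortex, and 5 were called higher for the interaction, none of which kept the call whichever library was left out. The count was 0 without cortex 4-week library 1, 1 without midbrain 4-week library 1 2 without cortex 4-week library 2 and 3 without midbrain 4-week library 2. Cfap52, Dnah12, Dnah5, Mcidas, Sntn and Spag6l had no read in cortex at 4 weeks.

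Fibroblast, mural and meningeal markers summed to 5609 to 5863 CPM in midbrain 4-week libraries and 2835 to 3004 in midbrain mock, and to 6785 to 6788 in cortex 4-week libraries and 1674 to 2000 in cortex mock, and 4 of 22 were called higher, with a median of 1.44, or 0.71 at the read floor. The count was 2 when midbrain 4-week library 2 or cortex 4-week library 1 was left out. Among the called genes, Col1a1, Col1a2 and Igf2 fell in both regions, less in midbrain, although the summed level of the list rose in both. Igf2 (chr7:142650766-142666816), an imprinted growth factor of meninges and vessels, had 8.29 and 10.7 CPM in midbrain 4-week libraries and 22.1 and 32.9 CPM in midbrain mock, and 0.366 and 1.15 CPM in cortex 4-week libraries and 70.1 and 108 CPM in cortex mock (5.33 ± 0.55, edgeR adjusted p = 0.000542). Microglia markers fell in both regions, to 161 to 166 CPM in midbrain, against 2946 to 3963 in mock, and to 160 to 161 CPM in cortex, against 2830 to 4168 in mock, with 24 of 27 falling in each region, and Cd53, Ctss and Itgam had no read in midbrain at 4 weeks. Astrocyte genes summed to 59395 to 61652 CPM in midbrain 4-week libraries and 34334 to 38456 in midbrain mock, and to 54386 to 54678 in cortex 4-week libraries and 36204 to 49576 in cortex mock. For the interaction, 1 of 27 microglia markers was called higher and 2 lower (median -0.56). Of 34 astrocyte genes tested, 1 was called higher and 2 lower (median 0.06). The part of these markers in the interferon, acute-phase and retinoid differences was not tested.

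Oligodendrocyte-lineage genes split. Of 17 tested, 4 were called lower, among them Mbp and Sox10, and 3 higher, among them Apod, with a median of -1.10. The lower count was 1 when midbrain 4-week library 1, midbrain 4-week library 2 or cortex 4-week library 1 was left out, and 2 for cortex 4-week library 2. Mbp (chr18:82475146-82585637), the major myelin protein, had 3.73 and 4.29 CPM in midbrain 4-week libraries and 3.31 and 3.92 CPM in midbrain mock, where the groups overlapped. It had 37.4 and 35.6 CPM in cortex 4-week libraries and 1.28 and 1.59 CPM in cortex mock (-4.52 ± 0.32, edgeR adjusted p = 7.26e-05). Sox10 (chr15:79154908-79165240), the lineage factor that drives myelin genes, rose in both, to 18.8 and 19.6 CPM in midbrain, against 3.09 and 4.69 CPM in mock, and to 112 and 110 CPM in cortex, against 4.65 and 6.68 CPM in mock. Its interaction of -2.0 ± 0.34 (edgeR adjusted p = 0.00889) was not called when midbrain 4-week library 1, midbrain 4-week library 2 or cortex 4-week library 1 was left out (edgeR adjusted p = 0.0595, 0.052 and 0.0532).

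Apod, a lipocalin that carries small lipids, moved against them, with 267 and 237 CPM in midbrain 4-week libraries and 4.18 and 3.47 CPM in midbrain mock, and 126 and 117 CPM in cortex 4-week libraries and 19.7 and 15.8 CPM in cortex mock (3.26 ± 0.27, edgeR adjusted p = 0.000126). Of the 25 markers, Enpp6, Fa2h, Gpr17, Mog, Myrf, Opalin and Ugt8a had no read in midbrain at 4 weeks, and Opalin and Ugt8a none in cortex. The summed level, 714 to 784 CPM in midbrain 4-week libraries and 341 to 352 in midbrain mock, and 694 to 729 in cortex 4-week libraries and 247 to 255 in cortex mock, overlapped between the regions at 4 weeks.

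Peptides, growth factors and channels held smaller sets. Chgb, a granin that packs peptide hormones, rose in midbrain to 13.7 and 14.6 CPM, against 0.597 and 0.514 CPM in mock, and in cortex it had 16.5 and 15 CPM at 4 weeks, against 11.4 and 8.19 CPM in mock (3.95 ± 0.34, edgeR adjusted p = 0.000161). The region difference lay in mock and was not called at 4 weeks (edgeR adjusted p = 0.783). Npy, an inhibitory peptide, rose in cortex to 11.7 and 12.3 CPM, against 2.5 and 1.59 CPM in mock, and had 2.49 and 2.54 CPM in midbrain 4-week libraries, against 5.15 and 3.4 CPM in mock (-3.30 ± 0.42, edgeR adjusted p = 0.00192). Sst, another inhibitory peptide, rose in both, to 73.8 and 81 CPM in midbrain, against 0.271 and 0.193 CPM in mock, and to 5.31 and 4.04 CPM in cortex, against 0.0581 and 0.636 CPM in mock. Its interaction of 4.42 ± 0.91 (edgeR adjusted p = 0.0271) was 2.24 without cortex mock library 2 (edgeR adjusted p = 0.62) and not called without any 1 of the 4-week libraries.

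Kcnk3, an acid-sensitive leak potassium channel, rose more in midbrain, to 94.1 and 85.4 CPM, against 2.39 and 3.79 CPM in mock, than in cortex, with 15.2 and 15.4 CPM at 4 weeks, against 5.11 and 7.24 CPM in mock (3.55 ± 0.34, edgeR adjusted p = 0.000361). Its cortex change was 0.26 with scaling to total reads and no longer called (edgeR adjusted p = 0.249). Gfra1, a co-receptor for the neurotrophic factor GDNF, had 32.5 and 32.4 CPM in midbrain 4-week libraries and 11.7 and 15.5 CPM in midbrain mock, and 26.7 and 27.1 CPM in cortex 4-week libraries and 46.1 and 48.1 CPM in cortex mock (2.06 ± 0.25, edgeR adjusted p = 0.00157). Gfra2, another co-receptor of that family, rose in both and more in cortex (-2.10 ± 0.29, edgeR adjusted p = 0.00285). Of glycolysis and hypoxia genes 4 of 36 were called higher and 0 lower, with a median of 0.44, and 12 were higher and 0 lower at an unadjusted p under 0.05. The called count was 2 when any 1 of the 4-week libraries was left out. DESeq2 and limma each called 4 higher and 0 lower. Pfkp, a phosphofructokinase, had 174 and 169 CPM in midbrain 4-week libraries and 106 and 91.9 CPM in midbrain mock, and 78.2 and 78.6 CPM in cortex 4-week libraries and 217 and 184 CPM in cortex mock (2.15 ± 0.24, edgeR adjusted p = 0.000958). Its midbrain change was 0.80, but -0.08 with scaling to total reads, where the interaction was 2.38.

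Genes that define astrocytes, neurons and the hairpin target had no called interaction. Of 23 target, astrocyte, neuronal and dopaminergic genes fixed for naming, edgeR, DESeq2 and limma called 0, and 1 was higher and 3 lower at an unadjusted p under 0.05. Gfap, the astrocyte filament, had 8510 and 8014 CPM in midbrain 4-week libraries and 9610 and 12580 CPM in midbrain mock, and 12425 and 12606 CPM in cortex 4-week libraries and 11107 and 19407 CPM in cortex mock (-0.14 ± 0.40, edgeR adjusted p = 0.962). Slc1a3, a glutamate transporter, fell in both (0.09 ± 0.23, edgeR adjusted p = 0.952), Sox9, a glial factor, rose in both (-0.06 ± 0.26, edgeR adjusted p = 0.98), and Syn1, a synaptic vesicle protein, rose in both (-0.17 ± 0.30, edgeR adjusted p = 0.922). A p that misses the threshold does not show equal responses, and the smallest interaction called among all genes was 1.01.

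Several lists had no called member, which depended on how the mock libraries were treated. By edgeR none of 33 mitosis genes (median 0.47), 32 S phase genes (0.19), 31 cholesterol genes (-0.29), 72 respiratory chain genes (0.10), 76 ribosomal protein genes (-0.40) or 15 mitochondrially encoded genes (-0.24) was called. DESeq2 called 1 cholesterol gene lower and limma 0 of all of these. At an unadjusted p under 0.05, mitosis genes had 1 higher and 1 lower, S phase genes 3 and 1, cholesterol genes 0 and 4, respiratory chain genes 0 and 0, ribosomal protein genes 0 and 6, and mitochondrial genes 0 and 1. A replicate block in mock, whose same-numbered libraries deviated together across regions, called 34 ribosomal protein genes, 7 mitochondrially encoded genes and 8 cholesterol genes lower, and 5 respiratory chain genes higher. Without both mock libraries numbered 2 the lower counts were 38, 13 and 7, with 6 respiratory chain genes higher, and the median of the mitochondrially encoded genes ran from -0.68 to 0.02 over all alternatives.

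**Figure D5:**
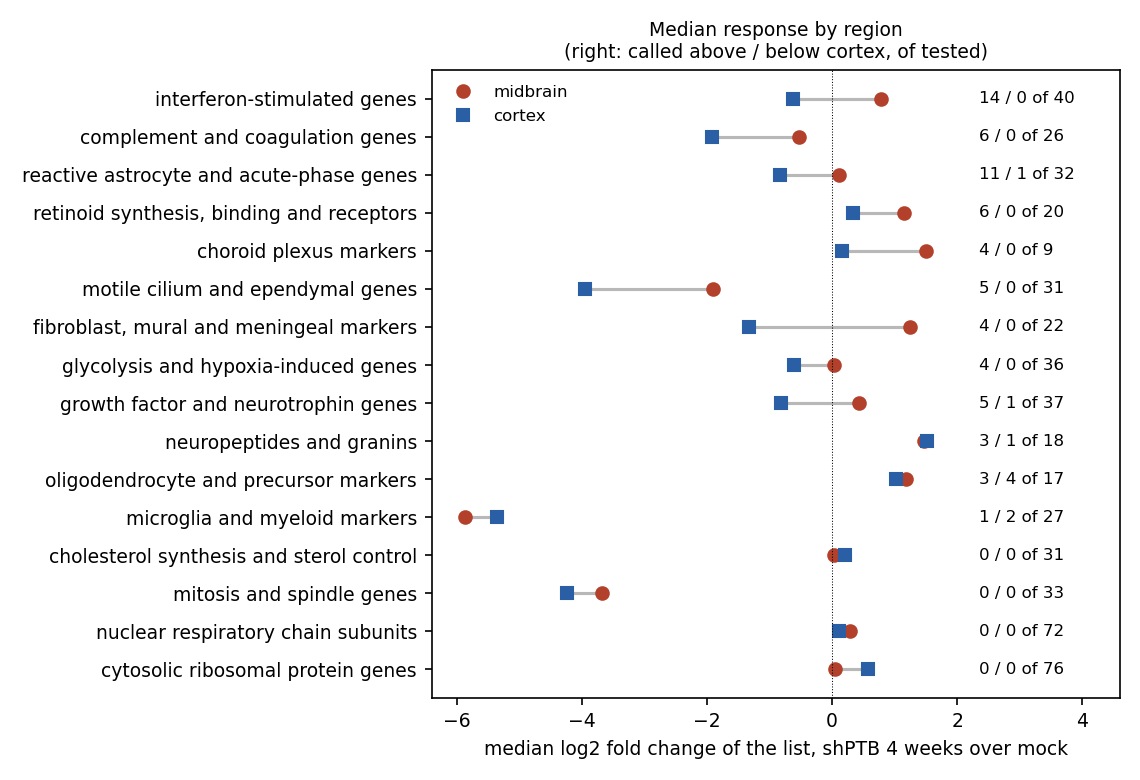
Median log2 change at 4 weeks against mock (horizontal axis) of 16 gene lists in midbrain (red circles) and cortex (blue squares), with the members called higher and lower for the interaction, of those tested, at the right. Interferon-stimulated genes have medians of 0.78 in midbrain and -0.62 in cortex, and mitosis genes fell far in both with 0 of 33 called.

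The 372 genes were also compared as region differences in each state. In mock, 320 genes (2.19%) differed between midbrain and cortex, 1.25% higher in midbrain and 0.938% lower, and at 4 weeks 1167 (7.99%). Of the 278 higher genes, 198 had no called region difference in mock and were higher in midbrain at 4 weeks. Another 28 were lower in midbrain in mock and higher at 4 weeks, among them Reg3g and Glycam1. Of the 94 lower genes, 53 had no called region difference in mock and were lower in midbrain at 4 weeks. Libraries of a group differed more in mock than at 4 weeks, so a missing call in mock does not show equal levels. At 2 weeks the interaction was called in 100 genes (0.685%), 84 of them also called with the same sign at 4 weeks, and the contrasts share the mock libraries, so their values are given side by side. The interaction of Reg3g was 7.33 at 2 weeks and 11.56 at 4 weeks, that of Mbp -4.53 and -4.52, and that of Ifitm1 2.43 and 5.18, all called at both times. That of Lcn2 was 0.43 at 2 weeks and 3.02 at 4 weeks, and that of Serpina3n 0.20 and 2.96, called at 4 weeks alone. The change of the interaction between the times, which needs no mock library, was 2.60 for Lcn2 (edgeR adjusted p = 0.00526) and 2.77 for Serpina3n (edgeR adjusted p = 0.0222).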

How the data were processed

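RNA was measured by 3′-end sequencing in cultured mouse astrocytes. The authors deposited, per the file headers, estimated counts (NumReads) and TPM for each transcript and library. The deposited TPM values were not used. The submitters' processing notes name cutadapt 2.3, Salmon 0.14.1, DESeq2 and mm10, with no annotation release. Salmon divides reads among similar transcripts, so paralogs are uncertain. Estimated counts, of which 56.3% of values over 0 were not whole, were summed per gene and rounded. The transcript table (GENCODE M21) lacked 521 of 140658 transcripts, with 0.0547 to 0.129% of reads.

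All 12 libraries entered 1 edgeR 4.0.16 quasi-likelihood fit (R 4.3.3) with a mean per group, TMM scaling and filterByExpr (count minimum 10, total 15), so the 2-week libraries add to the spread estimate (6 residual degrees of freedom, common dispersion 0.055). P-values were adjusted by Benjamini-Hochberg over 14607 genes, with 0.05 as threshold. The scripts were tested on simulated data. Counting intervals are exact at 95% and, like the floor of 3 reads, cover counting error only. Named genes were 23 fixed genes, the 8 largest called interactions in each direction among protein-coding genes with at least 10 CPM in the highest group, up to 3 called members per list, and up to 6 genes that went opposite ways. The members and lists were chosen with earlier results of these data known. Alternatives were other scalings, filters, tools (DESeq2, limma), library subsets and a replicate block.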

Additional observations from a re-analysis of the deposited data

Results flagged for a closer look

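The interaction is itself the test that 2 regions respond differently, and it was called by edgeR in 372 genes, 278 higher and 94 lower, with 58 going opposite ways. Among the named genes that went opposite ways, it was 11.56 for Reg3g, 7.45 for Glycam1, 7.14 for Car9, 5.18 for Ifitm1, 5.0 for Lrg1 and -4.88 for Wnt8b.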

How the results depend on the processing

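None of the 79 called named genes changed the sign of its interaction under the alternatives run, but 14 of the 23 uncalled ones did (Gfap between -0.60 and 0.21), as did the median of 15 of 45 lists. Directions within a region flipped with scaling to total reads for genes given in the report. The count of called interactions was 754 (549 higher, 205 lower) with no count filter, 162 (135 higher, 27 lower) with only the 8 libraries compared, and 141 to 549 with 1 library left out (113 to 432 higher, 28 to 179 lower). Scaling to total reads gave 463 higher, and limma 52 lower. Genes going opposite ways numbered 27 with only the 8 libraries and 25 to 79 with 1 left out. The midbrain response was called in 3415 to 6542 genes with 1 library left out and the cortex response in 3754 to 6481, or in 9201 with scaling to total reads. Of 79 called named genes, 29 kept the call under all 21 alternatives, 23 lost it under 1 to 5 and 27 under 6 or more. The causes were not tested.

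Same-numbered mock libraries of the 2 regions deviated together (r = 0.72), while all other pairs lay between -0.03 and 0.03. The numbers thus go together in mock alone, as a hint from the data, since the labels name no shared batch or culture. A replicate block over all groups gave 428 calls (320 higher, 108 lower). A replicate block in mock alone gave 2277 calls (1283 higher, 994 lower), 186 opposite, 9235 in midbrain and 8864 in cortex. Without both mock libraries numbered 1 there were 1781 calls (1141 higher, 640 lower) and 186 opposite, and without both numbered 2 there were 2113 (1115 higher, 998 lower), 195 opposite and 8824 in midbrain.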
